A study of Homo sapiens with 4 samples.

Results

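Interferon-inducible genes were followed across 4 RNA libraries of A375, a human melanoma cell line. The set comprised 10 genes, ADAR, APOL1, APOL2, APOL3, APOL4, APOL6, B2M, BATF2, BST2 and the lncRNA BISPR, chosen by name as known interferon-inducible genes among the 2864 genes of the authors' table. The study compared parental A375 cells without treatment (A375P) with a vemurafenib-resistant strain (A375R) kept under continuous, stepwise-raised vemurafenib. It also compared A375 cells given the solvent DMSO at 1‰ (A375+DMSO) with A375 cells given 2 μM vemurafenib (A375+VEM, acute vemurafenib), both for 48 h. Vemurafenib inhibits the BRAF kinase. All 4 libraries share the A375 line, a wild-type genotype label and a single batch label. The genotype label is not read here as BRAF status, since the study concerns melanoma with mutated BRAF. Whether A375R derives from a single clone is not stated. Each condition had 1 library, so differences could not be checked against replicates and are given without p-values.

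Interferons bind receptors at the cell surface and switch on genes through STAT and IRF transcription factors, which recognize the interferon-stimulated response element (ISRE) and the gamma-activated site (GAS) near their start sites. The products restrict viruses, present antigen and limit the sensing of a cell's own RNA. Many are also transcribed at a basal level in tumor cells without added interferon.

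Expression is given as reads counted per gene and as TPM, which divides the count by the length of the gene and brings every library to the same total. A pair of libraries was compared by the ratio of (TPM + 0.1), and a gene was called higher or lower past 1.5-fold. Genes below a TPM of 1 in both libraries of a pair were not compared. Single ratios are ratios of TPM without the 0.1 and carry a 95% exact (Clopper-Pearson) confidence interval (CI) on the reads, for counting error only. The table covers the first letters of the alphabet and carries between 8.48% and 8.94% of each library's TPM, so its read sums, from 1891215 in A375+DMSO to 2054277 in A375P, are not library depths. Of 4 melanocyte lineage markers, APOE had between 11.3 and 26.3 TPM and BCL2A1 between 4.24 and 37.5, whereas ABCB5 had at most 6 reads and BIRC7 at most 1.66 TPM. Of 13 leukocyte markers, 2 reached a TPM of 1 in A375P, A375R and A375+DMSO and 4 in A375+VEM. Their summed TPM was 6.87 in A375P, 24.9 in A375R, 19.1 with DMSO and 27.6 with acute vemurafenib, most of it from ADGRE1. AIF1 had at most 1 read and C1QA had 0 reads in every library. The libraries came from cultures of the A375 line, and this sum is RNA of marker genes, not a count of leukocytes. It was lowest in A375P, like most of the interferon-inducible genes below, and a link to them was not tested. In bulk RNA, fewer expressing cells and less RNA per cell cannot be told apart.

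The promoter sequences of BST2 and B2M are shown because both carry the ISRE letters while their RNA behaved differently across the libraries. RefSeq promoter windows on GRCh38.p14, from 250 bases before to 50 after an annotated start, were at hand for 5 of the 10 genes, ADAR, B2M, BATF2, BISPR and BST2. They were searched on both strands for the ISRE letters GAAANNGAA, found in 8.11% of 35116 RefSeq windows, and for the GAS letters TTCNNNGAA, found in 7.66%. The 250 bases before the start are given 5′ to 3′, with the ISRE letters in capitals, for BST2 on the minus strand (chr19:17405631-17405880) and for B2M on the plus strand (chr15:44711267-44711516).
BST2: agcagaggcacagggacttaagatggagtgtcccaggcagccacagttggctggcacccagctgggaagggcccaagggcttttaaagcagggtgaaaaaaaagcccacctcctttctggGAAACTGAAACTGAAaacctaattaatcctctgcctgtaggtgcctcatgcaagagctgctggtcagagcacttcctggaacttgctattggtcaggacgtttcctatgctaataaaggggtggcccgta
B2M: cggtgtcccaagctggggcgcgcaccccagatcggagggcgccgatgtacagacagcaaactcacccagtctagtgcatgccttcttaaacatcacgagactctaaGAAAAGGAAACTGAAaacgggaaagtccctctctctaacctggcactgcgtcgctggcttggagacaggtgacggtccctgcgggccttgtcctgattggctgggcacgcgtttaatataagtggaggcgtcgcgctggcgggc

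In BST2, 2 overlapping copies of GAAACTGAA lie from -130 to -122 and from -124 to -116 relative to the start. In B2M, GAAAAGGAA lies from -144 to -136 and overlaps GAAACTGAA from -138 to -130. GAS letters were found from -136 to -128 in BST2, where they overlap the ISRE letters, and again from -58 to -50. BISPR starts 56 bases from BST2 in the opposite direction, and its window holds no ISRE letters. The BST2 letters lie between 60 and 74 bases downstream of the BISPR start, 11 bases or more past the end of the BISPR window. The 9 bases TTCCTGGAA on the BST2 strand are the same genomic bases as TTCCAGGAA across the BISPR start, so both genes share this GAS match. Neither motif was found in the 3 windows of ADAR or in the window of BATF2. A match is a string of letters and does not show binding.

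**Figure D1:**
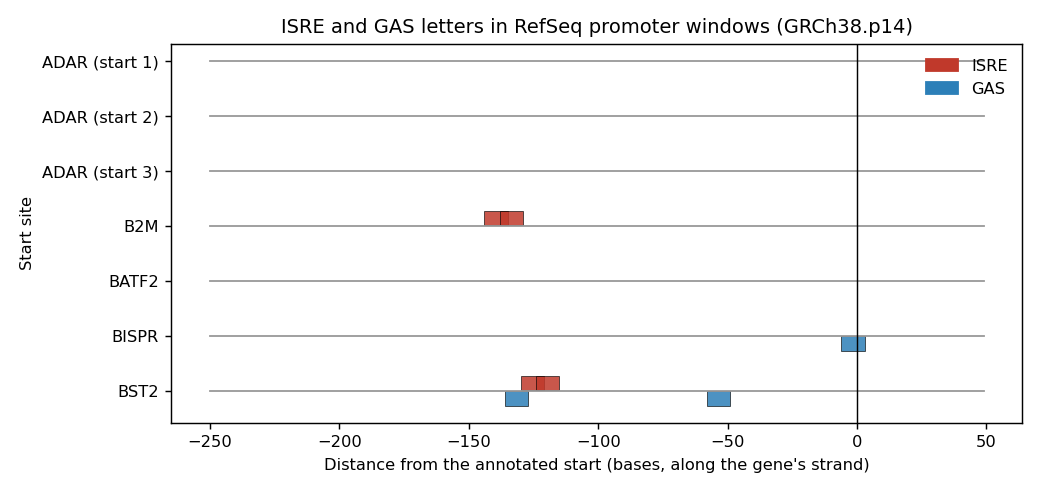
Positions of ISRE (red) and GAS (blue) letters in the RefSeq windows of 5 genes, by distance in bases from the annotated start at 0. BST2 and B2M carry overlapping ISRE copies at a similar distance before the start, and the 3 ADAR windows and the BATF2 window carry neither motif.

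Across the table, 166 other genes held the ISRE letters in a window. From A375P to A375R, 28 of the 111 compared (25.2%) were higher and 23 (20.7%) lower, beside 26.8% and 17.5% over all 1689 genes compared. From A375+DMSO to A375+VEM, 33 of 113 (29.2%) were higher and 20 (17.7%) lower, beside 26.5% and 19.7% over all 1784 genes. From A375P to A375+DMSO, 21 of 112 (18.8%) were higher and 28 (25%) lower, beside 26.8% and 18.9% of 1720 genes. From A375+DMSO to A375R, 18 of 110 (16.4%) were higher and 5 (4.55%) lower, beside 10.5% and 9.99% of 1702 genes. In A375+VEM against A375P, 38 of 115 (33.0%) were higher and 38 (33.0%) lower, beside 36.9% and 25.3% of 1782 genes. Genes holding these letters thus went both ways in each pair. More were higher than lower from A375+DMSO to A375R, and the reverse held from A375P to A375+DMSO. These shares were not tested.

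For the 9 genes other than APOL4, all averaging 1 TPM or more, A375P was the lowest library in 8, and BATF2 was the exception, with its highest TPM there. Among the 1700 genes whose mean TPM reached 1, A375P was lowest for 36.8%. Under other scalings A375P was no longer below A375+VEM for APOL2 (TMM, DESeq2) and APOL6 (TMM), nor below A375+DMSO for B2M (median ratio, DESeq2), all at log2 ratios within 0.1 of 0. On the plot of TPM by library the levels ran from B2M, at 1008 TPM or more in every library, to APOL4, at 0.11 TPM or less. The summed TPM of the 10 genes was 1147 in A375P, 1330 in A375R, 1271 with DMSO and 1926 with acute vemurafenib. B2M alone made up between 84.6% and 88.5% of it.

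**Figure D2:**
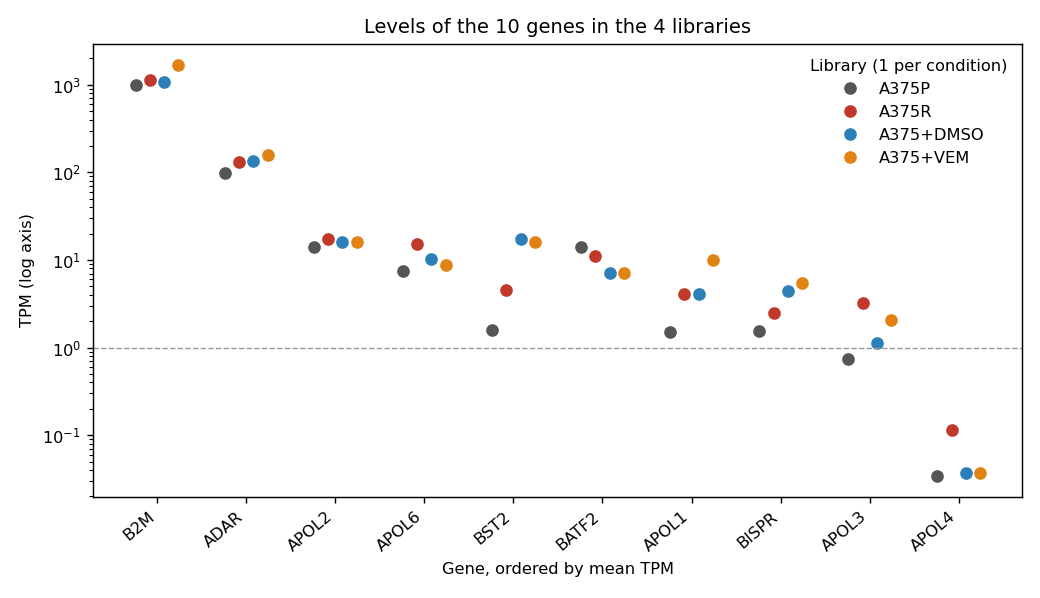
TPM of each gene (log axis) in the 4 libraries, 1 point per library, with genes ordered by mean TPM and a dashed line at a TPM of 1. The A375P point is the lowest for 8 of the 9 genes above the dashed line on average (APOL2, APOL6 and B2M lose this under some other scalings), and APOL4, at 1 to 3 reads, stays below 1 in all libraries.

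Between A375R and A375P, 5 of the 9 genes compared were higher in A375R and 0 were lower. The higher ones were APOL3, BST2, APOL1, APOL6 and BISPR. At 0.74 TPM in A375P, APOL3 passed the filter only through the other library in each pair with A375P, which set its direction. The count was 4, without BISPR, under each of the 3 other scalings. It was 1, APOL6, when a TPM of at least 5 was required, which left ADAR, APOL2, APOL6, B2M and BATF2 to compare. Over all 1689 genes compared in this pair, 26.8% were higher and 17.5% lower. The median log2 ratio of the 9 genes was 0.63, against 0.10 over all genes. With 9 genes and 1 library per condition, these counts describe the libraries and were not tested.

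Between A375+VEM and A375+DMSO, 3 of 9 genes were higher in A375+VEM, APOL1, APOL3 and B2M, and 0 were lower. Over all 1784 genes, 26.5% were higher and 19.7% lower, so the share of these genes was near that of the table. Their median log2 ratio was 0.20, against 0.11 over all genes. APOL1 and APOL3 were the genes called higher in both of the study's pairs.

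The 2 libraries without vemurafenib also differed. In A375+DMSO against A375P, BST2, BISPR and APOL1 were higher and BATF2 was lower, so 3 of 9 genes were higher where 26.8% of 1720 genes were, and 1 was lower where 18.9% were. A375P is the control in this comparison and in that of A375R, so the 2 are not independent. With A375+DMSO as the control of A375R, APOL3, APOL6 and BATF2 were higher, 3 of 9 beside 10.5% of 1702 genes, and BST2 and BISPR were lower, 2 of 9 beside 9.99%. With A375P as the control of A375+VEM, 6 of 9 were higher, beside 36.9% of 1782 genes, and BATF2 was lower, 1 of 9 beside 25.3%. Solvent, culture time and passage cannot be told apart from the condition in these libraries.

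**Figure D3:**
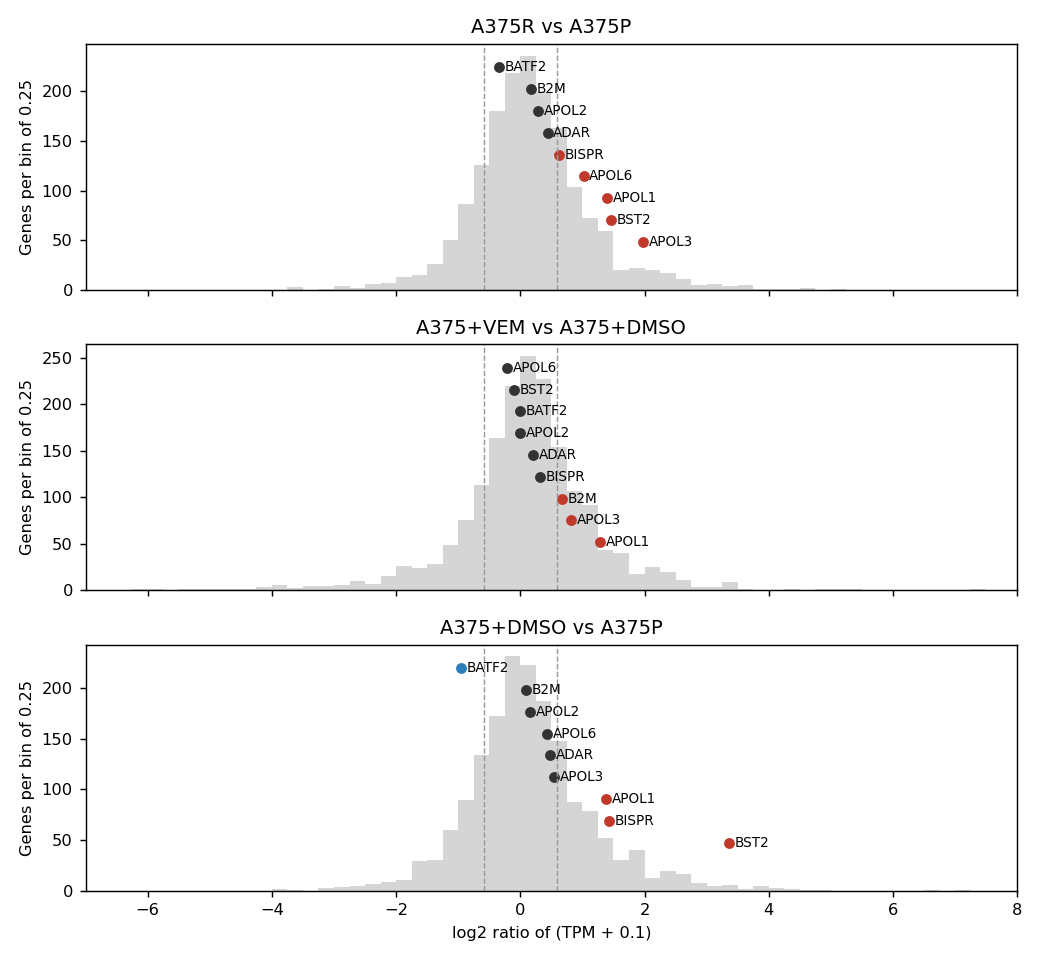
Number of genes per bin of log2 ratio of (TPM + 0.1) in 3 pairs (grey bars), with the 9 compared genes as points at their log2 ratio (height arbitrary, red higher and blue lower past the dashed 1.5-fold lines). BST2 at 3.36 in A375+DMSO against A375P lies farthest from 0, and in A375+VEM against A375+DMSO most of the 9 sit within the lines.

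B2M encodes beta-2-microglobulin, the light chain that stabilizes MHC class I molecules on the cell surface. In hg19, the build of the authors' coordinates, it spans chromosome 15, plus strand, positions 45003685 to 45010357. It had 8530 reads in A375P, 8710 in A375R, 8488 with DMSO and 13357 with acute vemurafenib, or 1008, 1140, 1075 and 1704 TPM. It ranked between 3rd and 8th of the 2864 genes by TPM. The libraries other than A375+VEM lay within 1.13-fold of each other. Acute vemurafenib left B2M 1.58-fold above DMSO (95% CI 1.54 to 1.63), and A375R was 1.13-fold above A375P (95% CI 1.10 to 1.16). Under the other scalings the latter log2 ratio of 0.18 became 0.08 to 0.10, outside that interval.

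The acute B2M difference sits at the threshold. Its log2 ratio of 0.66 became 0.56 when the pair was scaled to a median ratio of 1, 0.51 with TMM factors and 0.56 with DESeq2 size factors, all short of 1.5-fold. Its call in A375+VEM against A375P was likewise lost with TMM factors and with DESeq2 size factors, at 0.53 and 0.56. B2M often serves as a reference gene, so 3 other reference genes of the table were set beside it. From A375+DMSO to A375+VEM, ACTB (beta-actin) was at a ratio of 0.650 (95% CI 0.639 to 0.661), ATP5B (an ATP synthase subunit) at 0.693 and ALAS1 (a heme synthesis enzyme) at 0.591. From A375P to A375R these reference genes did not move together, with ACTB at 1.16, ATP5B at 0.755 and ALAS1 at 1.78. The TPM of B2M relative to ACTB was 0.459 in A375P, 0.448 in A375R, 0.468 with DMSO and 1.14 with acute vemurafenib. Within the A375+VEM library B2M thus changed place with ACTB.

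BST2 encodes tetherin, a membrane protein that holds budding enveloped viruses at the cell surface. In hg19 it spans chromosome 19, minus strand, positions 17513748 to 17516457. It had 14 reads in A375P, 36 in A375R, 142 with DMSO and 131 with acute vemurafenib, or 1.60, 4.56, 17.4 and 16.2 TPM. A single read was worth between 0.114 and 0.127 TPM. Both libraries of the acute pair were high, and both libraries of the resistance pair were low. A375+DMSO exceeded A375P 10.9-fold (95% CI 6.27 to 20.4), the widest range among the 10 genes; 6.88% of 1700 genes had a larger ratio of highest to lowest library.

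BST2 in A375R was 2.85-fold above A375P (95% CI 1.5 to 5.71). Relative to the DMSO library, A375R was lower, at a ratio of 0.262 (95% CI 0.176 to 0.380). Its direction in A375R therefore turned with the control. A375+VEM and A375+DMSO did not differ beyond counting error, at a ratio of 0.929 (95% CI 0.727 to 1.19).

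BISPR is an interferon-stimulated lncRNA named as a positive regulator of BST2. In hg19 it spans chromosome 19, plus strand, positions 17516495 to 17526545, with 37 bases between it and BST2. It had 28 reads in A375P, 40 in A375R, 73 with DMSO and 91 with acute vemurafenib, or 1.57, 2.48, 4.38 and 5.50 TPM. The order from A375P through A375R to the acute pair was that of BST2, over a smaller range. A375+DMSO was 2.79-fold above A375P (95% CI 1.78 to 4.49). A375R was 1.58-fold above A375P, with a CI from 0.95 to 2.66, which includes 1, so a difference could not be seen at this depth. That call was also lost with a pseudocount of 1 and under each of the 3 other scalings, at log2 ratios of 0.44 to 0.56. Against A375+DMSO, BISPR was lower in A375R, at 0.566 (95% CI 0.375 to 0.843).

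The TPM ratio of BST2 to BISPR was 1.02 in A375P, 1.84 in A375R, 3.98 with DMSO and 2.95 with acute vemurafenib, so the neighbors did not move in step. In GENCODE 29 on GRCh38, BISPR overlaps the protein-coding gene MVB12A on its own strand and 3 further genes on the other strand. Whether reads were counted by strand is not given in the sources used here, so BISPR counts may hold reads of these genes. By distance between log2 profiles centred over the 4 libraries, a measure over 4 points only, BISPR was 73rd of 1699 genes nearest to BST2. BST2 was 802nd nearest to BISPR. Nearest to BST2 were AGAP2, at a distance of 0.49, and BEND5, at 0.57. Nearest to BISPR were BCKDHB, at 0.16, and BCKDHA, at 0.23.

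The APOL genes encode apolipoprotein L proteins, which act on membranes. APOL1 is secreted and kills trypanosomes, and APOL3 acts on the membranes of bacteria in the cytosol. In hg19 they span 619154 bases of chromosome 22, in the order APOL6, APOL3, APOL4, APOL2 and APOL1. APOL6 lies 471914 bases from APOL3, and the other neighbors lie between 13116 and 22950 bases apart. These are related genes, and reads that match several of them could have been split between them.

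APOL1 lies on the plus strand from 36649117 to 36663577. It had 39 reads in A375P, 97 in A375R, 99 with DMSO and 243 with acute vemurafenib, or 1.49, 4.10, 4.05 and 10.0 TPM. The libraries formed 3 levels, since A375R and A375+DMSO differed by a ratio of 1.01 (95% CI 0.757 to 1.35). APOL1 in A375R was 2.75-fold above A375P (95% CI 1.88 to 4.10). With acute vemurafenib it was 2.47-fold above DMSO (95% CI 1.95 to 3.16). A375+DMSO was itself 2.72-fold above A375P (95% CI 1.86 to 4.05), as far as A375R was. ARHGEF40 and AIF1L had the profiles nearest to APOL1, at distances of 0.11 and 0.20.

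APOL3 lies on the minus strand from 36536371 to 36562225. It had 26 reads in A375P, 102 in A375R, 37 with DMSO and 67 with acute vemurafenib, or 0.74, 3.21, 1.13 and 2.06 TPM. A375R was highest, and the libraries without vemurafenib were the low ones and did not differ beyond counting error (ratio 1.53, 95% CI 0.90 to 2.62). APOL3 in A375R was 4.34-fold above A375P (95% CI 2.80 to 6.96) and 2.85-fold above A375+DMSO (95% CI 1.94 to 4.27). In A375+VEM it was 1.82-fold above A375+DMSO (95% CI 1.2 to 2.80), a call lost with a pseudocount of 1, at a log2 ratio of 0.52. It was the only gene of the 10 called higher in A375R and in A375+VEM against either library without vemurafenib. C20orf144 and ABTB1 were nearest to its profile, at 0.37 and 0.41.

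APOL6 lies on the plus strand from 36044424 to 36064456. It had 657 reads in A375P, 1211 in A375R, 829 with DMSO and 712 with acute vemurafenib, or 7.56, 15.4, 10.2 and 8.84 TPM. Here A375R stood above the other libraries and A375+VEM lay below its own control. Its level in A375R was 2.04-fold that of A375P (95% CI 1.85 to 2.25) and 1.51-fold that of A375+DMSO (95% CI 1.38 to 1.65). The latter call was lost after scaling to a median ratio of 1 and with a pseudocount of 1, at log2 ratios of 0.57 and 0.55. In A375+VEM the ratio to A375+DMSO was 0.865 (95% CI 0.781 to 0.957). C3orf67 was among the genes nearest to its profile, at 0.12.

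APOL2 lies on the minus strand from 36622255 to 36636000. It had 336 reads in A375P, 370 in A375R, 351 with DMSO and 349 with acute vemurafenib, or 14.2, 17.3, 15.9 and 15.9 TPM. In the order of TPM, from A375P through DMSO and acute vemurafenib to A375R, no neighbors differed beyond counting error. The ends did on the TPM scale, with A375R 1.22-fold above A375P (95% CI 1.05 to 1.42). Under the other scalings this log2 ratio of 0.28 became 0.19 to 0.21, and no interval was computed there. A larger range was seen in 95.1% of 1700 genes. ARHGAP1 and ANKRD17 were nearest to APOL2, both at 0.09.

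APOL4, on the minus strand from 36585176 to 36600879, had 1 read in A375P, 3 in A375R, 1 with DMSO and 1 with acute vemurafenib. It was below the filter, and no fold is given. The summed TPM of the APOL genes was 24.0 in A375P, 40.1 in A375R, 31.3 with DMSO and 36.8 with acute vemurafenib. The share of APOL1 in it was 6.21% in A375P, 10.2% in A375R, 12.9% with DMSO and 27.2% with acute vemurafenib. That of APOL2 was 59.0% in A375P, 43.0% in A375R, 50.7% with DMSO and 43.1% with acute vemurafenib.

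**Figure D4:**
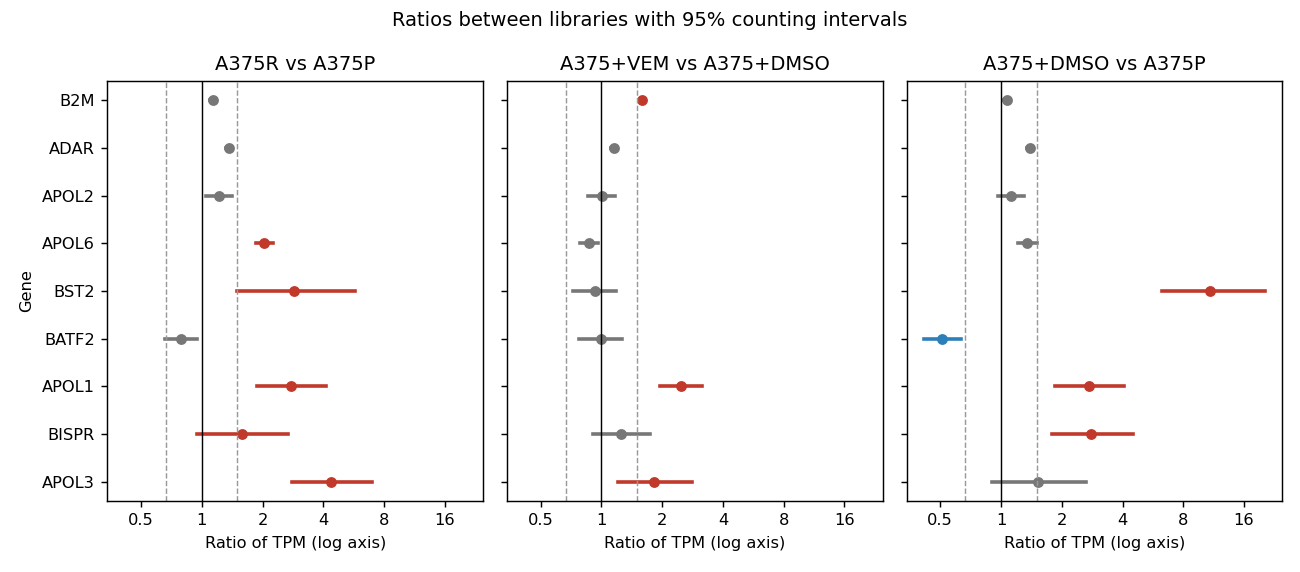
Ratio of TPM (log axis) of 9 genes in 3 pairs, with bars for the 95% counting interval, dashed lines at 1.5-fold, and red or blue for genes called higher or lower. APOL1 is above 1.5-fold in all 3 pairs, and BST2 goes from 10.9 in A375+DMSO against A375P to 0.929 in A375+VEM against A375+DMSO.

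ADAR encodes an enzyme that converts adenosine to inosine in double-stranded RNA, which limits the sensing of a cell's own RNA. Interferon drives a long isoform from its own promoter, and the counts per gene used here do not separate isoforms. In hg19 ADAR spans chromosome 1, minus strand, positions 154554533 to 154600456. It had 5913 reads in A375P, 7253 in A375R, 7694 with DMSO and 8795 with acute vemurafenib, or 97.3, 132, 136 and 156 TPM. A375P was lowest, and A375R and A375+DMSO did not differ beyond counting error (ratio of A375R to A375+DMSO 0.974, 95% CI 0.943 to 1.01). A375R was 1.36-fold above A375P (95% CI 1.31 to 1.41) and A375+VEM 1.15-fold above A375+DMSO (95% CI 1.12 to 1.19), both short of 1.5-fold. Under the other scalings these log2 ratios of 0.44 and 0.20 became 0.34 to 0.37 and 0.05 to 0.10, outside these intervals. In A375+VEM against A375P, ADAR was called higher at a log2 ratio of 0.68, a call lost under the 3 other scalings, at 0.46 to 0.53. BRMS1L and ABCB8 were nearest to its profile, at 0.04 and 0.06.

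BATF2 encodes a basic leucine zipper transcription factor of the AP-1 superfamily. In hg19 it spans chromosome 11, minus strand, positions 64755417 to 64764517. It had 280 reads in A375P, 200 in A375R, 134 with DMSO and 132 with acute vemurafenib, or 13.9, 11.0, 7.15 and 7.09 TPM. Both libraries of the acute pair were low and did not differ beyond counting error (ratio 0.992, 95% CI 0.774 to 1.27). BATF2 was lower in A375+DMSO than in A375P, at a ratio of 0.513 (95% CI 0.414 to 0.632). In A375R it was at 0.791 of A375P (95% CI 0.656 to 0.952) and 1.54-fold above A375+DMSO (95% CI 1.23 to 1.93), the latter a call lost with a pseudocount of 1, at a log2 ratio of 0.56. ASPHD2 and ARL9 were nearest to its profile, at 0.05 and 0.10. BATF2 and BST2 ran in opposite orders apart from the acute pair, where neither differed beyond counting error.

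Other interferon-inducible genes of the table were counted in 2 lists. Both lists were chosen with earlier results of these data known. Genes of a family are not independent, and the counts describe the libraries and were not tested. The first held 13 genes, APOBEC3 cytidine deaminases, BTN3A butyrophilins, AIM2, BATF and BATF3. All 11 compared were higher in A375R than in A375P, where 26.8% of all genes were, with a median log2 ratio of 1.91, and this count was 11 under each of the 3 other scalings. In A375+DMSO against A375P, 10 of 11 were higher, also under each of them, beside 26.8% of all genes, with a median of 1.14. At 0.204 TPM in A375P, APOBEC3H passed the filter only through the other library in each pair with A375P, which set its direction. In A375R against A375+DMSO, 5 of 11 were higher, beside 10.5% of all genes. In A375+VEM against A375+DMSO, 2 were higher and 3 lower, beside 26.5% and 19.7% of all genes, with a median of 0.00. Under the other scalings 1 was higher, and 3 were lower, or 4 with TMM factors. In A375+VEM against A375P, 6 were higher and 2 lower, beside 36.9% and 25.3%, and 5 were higher and 2 lower under the other scalings. The 2 lower ones were APOBEC3B, at 15.2 TPM in A375P and 2.54 in A375+VEM, and BATF3, at 3.69 and 1.54, so A375P was not their lowest library. BATF3 was named after its values were seen.

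APOBEC3G, which edits viral DNA, had 240 reads in A375P, 1966 in A375R, 615 with DMSO and 271 with acute vemurafenib. Its level in A375R was 9.07-fold that of A375P (95% CI 7.93 to 10.4), and its ratio of A375+VEM to A375+DMSO was 0.444 (95% CI 0.383 to 0.513). APOBEC3B was 3.60-fold higher in A375R (95% CI 3.07 to 4.24) and at 0.0796 of A375+DMSO in A375+VEM (95% CI 0.0534 to 0.115). APOBEC3C was 2.74-fold higher in A375R, with a ratio of 0.997 in the acute pair. APOBEC3H rested on 2 reads in A375P against 27 in A375R, a ratio of 14.9 (95% CI 3.76 to 130). In the acute pair it was called higher at 1.53, with a 95% CI from 0.858 to 2.80, which includes 1. AIM2, the other gene called higher there, was at 4.48 (95% CI 3.43 to 5.93) and was named after its values were seen. The APOBEC3 genes are close relatives, and reads shared between them make their separate counts uncertain.

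The second list held 7 further genes of the interferon gamma response. Of 5 compared, 2 were higher in A375R than in A375P and 3 in A375+VEM than in A375+DMSO, beside 26.8% and 26.5% of all genes. None of the 5 was lower in either pair, beside 17.5% and 19.7%. C1R, a complement protease, had 44 reads in A375P, 228 in A375R, 317 with DMSO and 970 with acute vemurafenib. A375R exceeded A375P 5.74-fold (95% CI 4.14 to 8.11), and acute vemurafenib exceeded DMSO 3.08-fold (95% CI 2.71 to 3.51). C1S, its partner protease, was 3.69-fold higher in A375+VEM (95% CI 2.39 to 5.88) and at 1.25 in A375R (95% CI 0.692 to 2.25). BTG1, an antiproliferative gene and the most abundant of the list, was at 1.28 in A375R and 0.836 in A375+VEM.

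**Figure D5:**
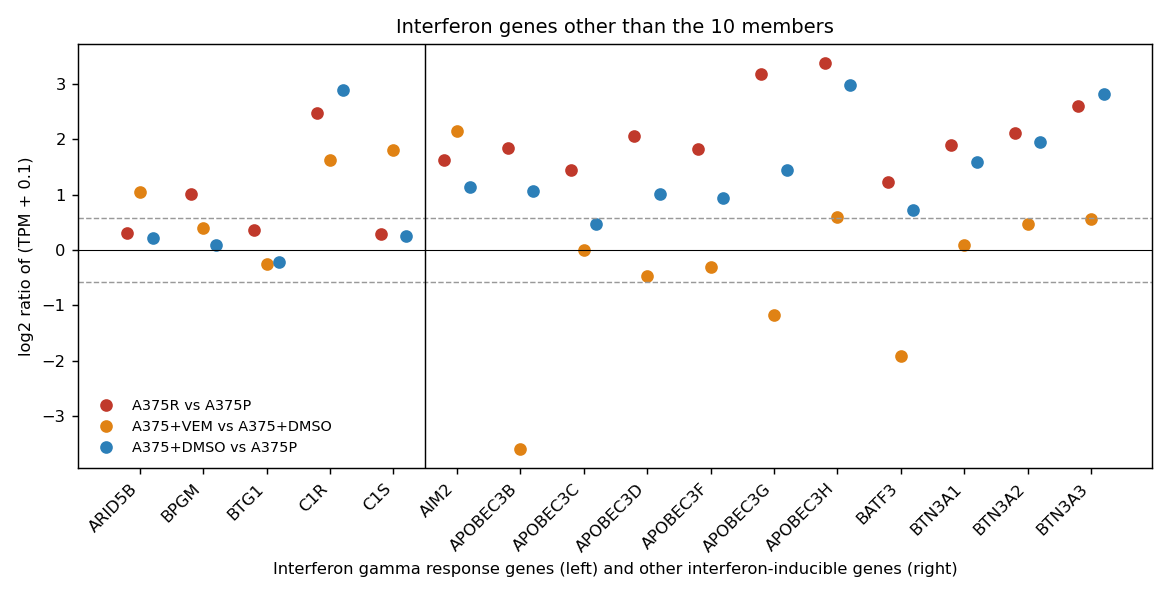
Log2 ratio of (TPM + 0.1) in 3 pairs for the 5 compared genes of the interferon gamma response list (left of the line) and the 11 of the other list (right), with dashed lines at 1.5-fold. On the right, all 11 points of A375R against A375P lie above 1.5-fold, and the points of A375+VEM against A375+DMSO lie on both sides of 0.

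Genes related to the 10 by family or by name, and not counted as interferon-inducible, were set beside them. Of 10 genes in the table, 6 were compared. They include BST1, which shares a name with BST2 and is not of its protein family. In A375R against A375P, 0 were higher and 0 lower, beside 26.8% and 17.5% of all genes, with a median log2 ratio of -0.20. With the pair scaled to a median ratio of 1, 2 were lower there, and 1 was lower with TMM factors or DESeq2 size factors. In A375+VEM against A375+DMSO, 3 were higher and 1 lower, beside 26.5% and 19.7%. BST1 was among the 3, at 1.77 (95% CI 1.42 to 2.22), and was at 0.727 in A375R (95% CI 0.529 to 0.995). ADARB1, another RNA-editing deaminase, was at 1.14 in A375R (95% CI 1.00 to 1.29) and 1.75-fold higher in A375+VEM (95% CI 1.60 to 1.91). APOLD1, which shares the apolipoprotein L domain, was at 0.678 in A375R (95% CI 0.515 to 0.887) and 2.66-fold higher in A375+VEM (95% CI 2.21 to 3.20). ADAT1, a deaminase that edits transfer RNA, was at 1.13 in A375R (95% CI 1.05 to 1.21) and at 1.30 in A375+VEM (95% CI 1.22 to 1.38). ADAT2, a subunit of another such deaminase, was at 1.03 in A375R (95% CI 0.864 to 1.23) and at 0.272 in A375+VEM (95% CI 0.204 to 0.359). The A375R and A375+VEM values of this list are for 1 library each, and their difference from the 10 genes was not tested.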

How the data were processed

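Each of the 4 conditions (A375P, A375R, A375+DMSO, A375+VEM) gave 1 RNA-seq library. For every gene, the authors deposited a read count and a TPM in each library. The deposited counts are whole numbers without normalization, and the deposited TPM divides them by the length of the gene and scales each library. The submitters' processing notes name HISAT, HISAT2, TopHat2, Bowtie2 and hg19, with no role or order. The counting program and its strand setting are not given in the sources used here. The table ends partway through the alphabet with 2864 genes, and 1 incomplete row was left out. All 10 genes were matched by symbol and Entrez ID.

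Pairs were compared by the ratio of (TPM + 0.1) with a filter at a TPM of 1 and a threshold of 1.5-fold. Intervals at 95% are exact Clopper-Pearson intervals on reads, scaled by the library constants behind the TPM. With 1 library per condition no test between conditions was made. Alternatives were pseudocounts of 1 and 0.01, no filter, a TPM of at least 5, a threshold of 2-fold, scaling to a median ratio of 1, and edgeR TMM or DESeq2 size factors on the counts. Those scalings were added for the gene lists after seeing the data. All 10 genes were named, with the 2 nearest profiles of each and, per list, up to 2 genes with the highest mean TPM and up to 2 with the largest ratio in the study's pairs. 1 gene that this rule and a list held is not reported here. The genes and lists were chosen with earlier results of these data known. The steps were tested on simulated data with counting error only, and with changes of a single fixed size, larger than 2-fold, in genes of at least 5 TPM. Smaller changes, among them calls near 1.5-fold, lower genes and spread between libraries were not covered. Promoter windows come from RefSeq (GRCh38.p14), overlaps from GENCODE 29, and no coordinate was moved between builds. The ISRE string was shortened by 1 base after a longer form had been searched. Size factors used R 4.3.3 with DESeq2 1.42.0 and edgeR 4.0.16, and the other steps used Python 3.11.15 with pandas 2.3.3, scipy 1.17.1, numpy 2.4.6 and matplotlib 3.10.9.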

Additional observations from a re-analysis of the deposited data

Results flagged for a closer look

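APOL6 went opposite ways in the study's pairs, with both counting intervals clear of 1. Its ratio was 2.04 for A375R over A375P and 0.865 for A375+VEM over A375+DMSO. Whether the pairs differ was not tested, and the acute ratio is short of 1.5-fold.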

How the results depend on the processing

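Of 80 counts of the 10 genes under an alternative, 71 were within 1.5 times the first count and 9 were not. With a TPM of at least 5, which admits fewer genes, 1 gene was higher in A375R against A375P, 1 was higher in A375+DMSO against A375P and 1 was lower in A375R against A375+DMSO. At a threshold of 2-fold, stricter by construction, 1 was higher in A375+VEM against A375+DMSO, 1 higher and 1 lower in A375R against A375+DMSO, and 0 lower in A375+DMSO or in A375+VEM against A375P. With a pseudocount of 1, which shrinks ratios of low genes, 1 was higher in A375R against A375+DMSO. The share of all genes was not taken under these settings, so these counts have no background beside them. Of 225 values of single genes under another pseudocount or scaling, 17 crossed 1.5-fold and 8 changed sign. Of the same values, 29 lay outside the counting interval of the first ratio, which does not cover the choice of scaling. None of the 8 sign changes was in a value past 1.5-fold, and they belong to APOL2, B2M and APOL6. Scaling to a median ratio of 1 moves the A375+VEM comparisons by 0.11 against A375+DMSO and 0.15 against A375P on the log2 scale. Depth limits BST2, BISPR, APOL3 and APOL4, with as few as 14, 28, 26 and 1 reads. No paired analysis was possible because each condition has 1 library.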
